A study of Mus musculus with 9 samples.

Results

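Collagens are the main structural proteins of connective tissue, and the chains that build them were followed here in the embryonic mouse hindgut. The members were a list of 34 collagen chains, drawn up with earlier results of these data known. The cartilage chains Col2a1, Col9a1, Col9a2, Col9a3 and Col11a1 were left out of it. Col28a1 had no entry in the platform's gene table and was not analysed here, so 33 chains were measured among 18193 genes. Each chain was read from its brightest probe set, a probe set being the group of array probes that reads a transcript, among those that name that gene alone. The 33 chains had 65 such probe sets in all, and the other probe sets were used to see whether they agreed.

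A collagen molecule is a triple helix of 3 chains, which may be copies of a single chain or products of different genes. In the gut wall, mesenchymal cells, the connective tissue and muscle precursors around the epithelium, make most of the fibrillar collagens, which form the tensile fibres, and collagen VI, which forms beaded microfilaments around cells. FACIT collagens sit on the surface of fibrils, collagen IV makes the sheet of the basement membrane under epithelium, muscle and vessels, and transmembrane collagens stay anchored in the cell surface. Enteric neural crest cells, from which the neurons and glia of the gut arise, migrate through this matrix, and Ednrb encodes the endothelin receptor they need to reach the end of the gut.

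The study set 3 genotypes against each other at embryonic day 14, which the series text gives as 14.5, with 3 arrays of each. Wild type was the control. Ednrb null embryos carried 2 copies of an Ednrb lacZ allele, and Ednrb NCC null embryos carried the genotype label Ednrb-FLEX(NCC-/-), in which the labels do not spell out NCC or name the driver of the deletion. The terminal colon was dissected, so each sample held all cell types of that piece of gut, and in such bulk RNA fewer cells of a type cannot be told apart from less RNA per cell. Nothing in the labels says that arrays of a group are different embryos, so the p-values cover only the spread among these samples, which may be partly technical.

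Values are log2 intensities, so a difference of 1 is 2-fold, and a gene was called when its adjusted p in limma, corrected over all 18193 genes, was under 0.05. Ednrb, read first as a check of the labels, was 11.08, 10.95 and 11.05 in wild type, 11.15, 11.32 and 11.04 in Ednrb NCC null and 9.23, 9.40 and 8.77 in Ednrb null. Ednrb null was 3.71-fold below wild type (limma adjusted p = 3.91e-05), whereas Ednrb NCC null differed from wild type by 0.15 (adjusted p = 0.653). Where these probes lie relative to the disrupted part is not known. Array medians lay between 111.7 and 115.7 on the linear scale. Markers of gut mesenchyme were present in every array: 11 of 13 lay above the dimmest 40% of genes, and Pdgfra, a receptor of mesenchymal cells, read 12.68 to 13.25. Summed markers of enteric crest and neurons were 11.24 to 11.99 in wild type, 10.65 to 10.78 in Ednrb NCC null and 10.10 to 10.47 in Ednrb null, in log2 of the summed intensity, so both mutants lay below wild type. The brightest of these markers, Erbb3, weighs most in the sums, with means of 10.34, 10.25 and 9.68 in that order. The median difference of the 6 measured markers from wild type was -1.72 in Ednrb NCC null and -1.87 in Ednrb null. Of the 6, 4 and 5 were called lower, against 1.25% and 2.39% of all genes. Between the mutants 1 was called lower in Ednrb null, Erbb3, against 4.46% of all genes. There 3 of the 6 were below 0 and 3 above, with a median of -0.09.

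In Ednrb null hindgut 5 of the 33 collagen chains fell against wild type and 0 rose in limma, while 28 were not called. The chains that fell were Col12a1 and Col16a1 of the FACIT class, Col6a2 and Col6a3 of collagen VI, and Col1a1, the main chain of collagen I. In Ednrb NCC null hindgut 1 chain fell, which was again Col12a1, 0 rose and 32 were not called. Between the mutants, Ednrb null was lower than Ednrb NCC null for Col6a3 and Col8a2 and higher for Col24a1. Both mutants were compared with the same 3 wild type arrays, so those comparisons are not independent of each other.

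Set against all genes, the 5 chains that fell in Ednrb null were 15.2% of the members, where 2.39% of all genes were called lower and 2.65% higher. Of the 5 cartilage chains left out, 2 were called higher in Ednrb null and 0 lower, with a median difference of 0.44. The share and direction among the members thus depend on that exclusion. The 1 chain that fell in Ednrb NCC null was 3.03% of the members, where 1.25% of all genes were called lower and 3.7% higher. The 2 chains lower in Ednrb null than in Ednrb NCC null were 6.06% of the members against 4.46% of all genes, and the 1 higher chain was 3.03% against 2.07%, so neither share stood far from the background. At an unadjusted p under 0.05, 14 members passed in Ednrb null, 3 passed in Ednrb NCC null and 14 between the mutants, which was 42.4%, 9.09% and 42.4% of them, against 19.2%, 19.6% and 19.7% of all genes. The median difference of the 33 chains from wild type was -0.17 for Ednrb null and -0.05 for Ednrb NCC null, where the medians over all genes were 0.04 and 0.02. Of the members, 25 were below 0 in Ednrb null and 21 were so in Ednrb NCC null, or 75.8% and 63.6% of them, against 39.8% and 44.0% of all genes.

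The 3 arrays of Ednrb null did not overlap those of wild type for 10 members, 9 of them lower and 1 higher. That was 30.3% of the members, while 22.6% of all genes did not overlap. For Ednrb NCC null and wild type 4 members did not overlap, 3 lower and 1 higher, which at 12.1% was a smaller share than the 21.9% of all genes. For the mutants against each other 9 lower members and 1 higher member did not overlap, or 30.3%, against 24.2% of all genes. Of the 33 chains, 25 lay above the dimmest 40% of genes, and all 5 chains called in Ednrb null were among them.

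**Figure D1:**
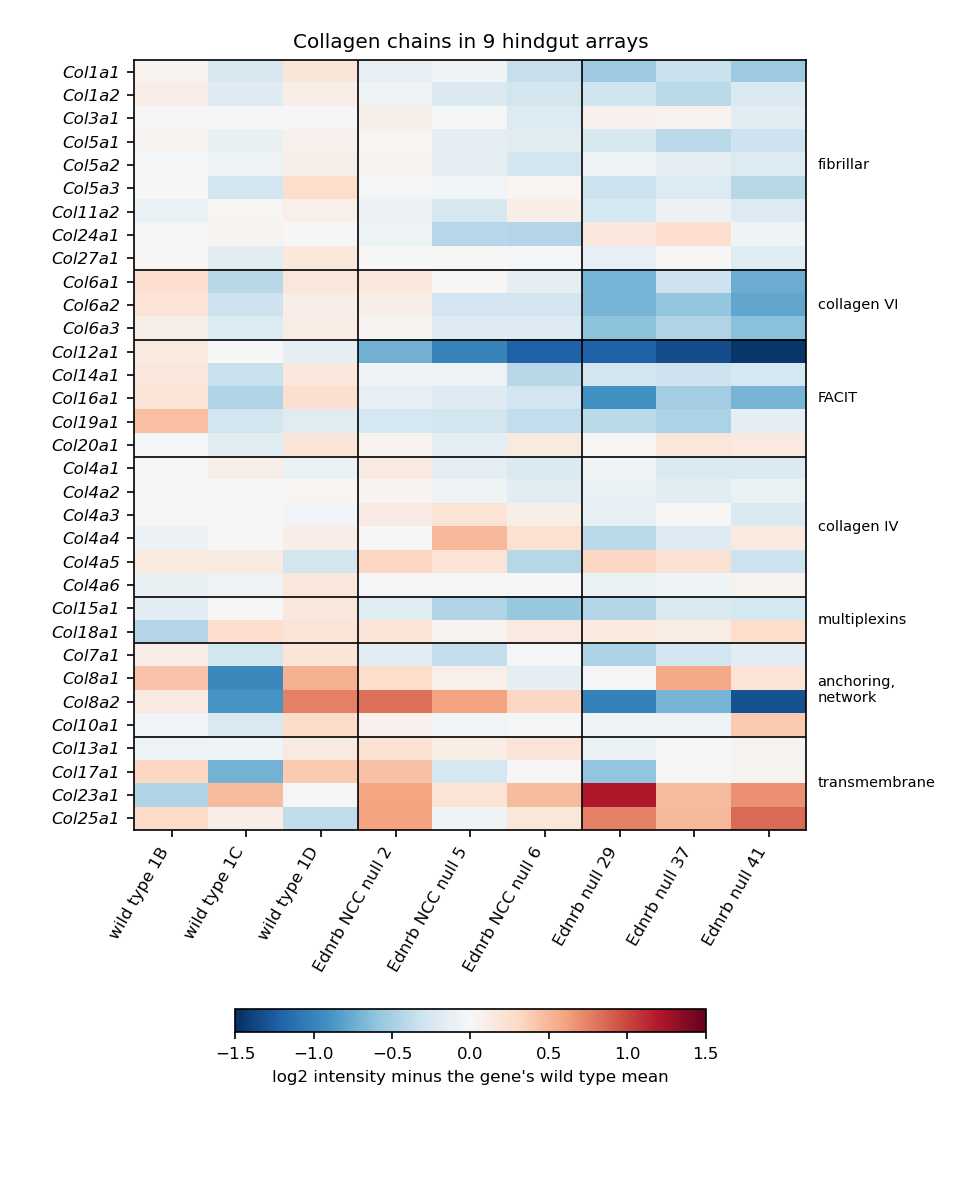
Log2 intensity of the 33 collagen chains (rows, by class) in the 9 arrays (columns), each minus the mean of the 3 wild type arrays for that chain; blue is lower and red higher than wild type. The row of Col12a1 is blue in all 6 mutant arrays, the 3 rows of collagen VI are blue in the Ednrb null arrays, and wild type 1C is bluer than the other wild type arrays for collagen VI, Col16a1, Col8a1 and Col8a2.

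Col12a1 was the member with the largest difference in both mutants. It encodes collagen XII, a FACIT chain that lies on collagen I fibrils and links them to other matrix proteins. Its level was 10.20, 10.07 and 9.93 in the wild type arrays 1B, 1C and 1D. In Ednrb NCC null it was 9.35, 9.06 and 8.85 in arrays 2, 5 and 6, and in Ednrb null it was 8.86, 8.73 and 8.61 in arrays 29, 37 and 41. All 6 mutant arrays lay below all wild type arrays, and the lowest Ednrb NCC null array lay just under the highest Ednrb null array. The gene fell by 1.33 in Ednrb null (SE 0.13, 2.52-fold, limma adjusted p = 0.000205) and by 0.98 in Ednrb NCC null (SE 0.13, 1.97-fold, limma adjusted p = 0.00218). The difference between the mutants, -0.35 with a 95% interval from -0.63 to -0.07, was not called (adjusted p = 0.143).

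Of the 4 probe sets of Col12a1, the next brightest read 7.81 ± 0.05 in wild type, 7.35 ± 0.15 in Ednrb NCC null and 7.21 ± 0.08 in Ednrb null (SD, n = 3). In a fit over all probe sets it was lower by the test in both mutants, with differences of -0.60 (adjusted p = 0.00404) and -0.47 (adjusted p = 0.0223). The remaining 2 probe sets were dim, with means of 3.83 and 3.77, and differed from wild type by -0.15 and -0.09 in Ednrb null. The next brightest thus differed by less than the brightest, and the dim ones lie near the floor of the array, so their sign carries little. When all 4 probe sets were averaged in place of the brightest, the differences were -0.54 and -0.41, both called. Col12a1 was called in each of the 18 alternative settings in both comparisons with wild type, leaving out each array included, with adjusted p from 7.28e-05 to 0.0302 in Ednrb null and from 0.00108 to 0.0152 in Ednrb NCC null.

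Among the other 4 FACIT chains, Col16a1 fell in Ednrb null and none was called in Ednrb NCC null. There Col12a1 was the 1 of the 5 that passed at an unadjusted p under 0.05. Col16a1 encodes collagen XVI, a fibril-associated chain that also occurs near basement membranes. It read 10.96, 10.32 and 11.02 in wild type, 10.65, 10.57 and 10.48 in Ednrb NCC null and 9.86, 10.24 and 10.08 in Ednrb null. The Ednrb null arrays lay below all others, but wild type 1C came close to Ednrb null 37. The fall in Ednrb null was 0.71 (SE 0.17, 1.64-fold, limma adjusted p = 0.0362). The call was lost without any array but wild type 1C, with adjusted p from 0.0543 to 0.139 over those 8 fits, and was 0.00128 without wild type 1C. Fitted on these 2 groups alone it had an adjusted p of 0.106.

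Col14a1, which binds fibrils and limits their growth, read 11.46, 10.95 and 11.44 in wild type, 11.23, 11.21 and 10.87 in Ednrb NCC null and 11.01, 10.98 and 11.02 in Ednrb null. The Ednrb null arrays were close together and the wild type arrays were split, with 1C below all 3 of them, and the difference of -0.28 was not called. Col19a1, a chain of basement membrane zones, was dim. It differed by -0.34 in Ednrb null and by -0.30 in Ednrb NCC null, and its wild type value rested on array 1B at 7.14, with 1C and 1D at 6.42 and 6.51. Its other probe sets differed by 0.11 and -0.80 in Ednrb null. Col20a1, also dim, differed by 0.11 and 0.01.

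The 3 measured chains of collagen VI are the subunits of a single molecule, and in Ednrb null 2 of them fell and the other missed the threshold with a difference of like size. Col6a1 and Col6a2 are neighbours on chromosome 10, with no protein-coding gene between them in the RefSeq order, and Col6a3 lies on chromosome 1. The 250 bases before their RefSeq transcript starts are printed here because these genes encode 1 molecule from different chromosomes. They are from RefSeq on GRCm38.p6, 5′ to 3′ on the gene's strand, with capitals for matches to GGGCGG (GC box), TATAAA or CCAAT on either strand. For Col6a2 the upstream of 2 listed starts is shown.
Col6a1, chr10:76726045-76726294, minus strand: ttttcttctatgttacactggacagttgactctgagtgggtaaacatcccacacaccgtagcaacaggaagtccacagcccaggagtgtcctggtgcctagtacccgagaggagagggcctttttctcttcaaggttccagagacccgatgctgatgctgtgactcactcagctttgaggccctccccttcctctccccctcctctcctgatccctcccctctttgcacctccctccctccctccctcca
Col6a2, chr10:76623631-76623880, minus strand: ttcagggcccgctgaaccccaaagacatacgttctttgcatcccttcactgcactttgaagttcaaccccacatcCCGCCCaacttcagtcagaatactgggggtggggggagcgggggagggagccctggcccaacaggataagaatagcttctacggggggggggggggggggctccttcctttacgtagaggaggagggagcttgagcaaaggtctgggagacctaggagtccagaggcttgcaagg
Col6a3, chr1:90843972-90844221, minus strand: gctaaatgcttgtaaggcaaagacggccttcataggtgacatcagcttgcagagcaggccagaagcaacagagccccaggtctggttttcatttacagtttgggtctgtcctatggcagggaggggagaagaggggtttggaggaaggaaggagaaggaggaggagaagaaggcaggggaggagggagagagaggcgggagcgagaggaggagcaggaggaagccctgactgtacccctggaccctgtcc

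The windows of Col6a1 and Col6a3 held none of the 3 letter strings, and that of Col6a2 held 1 GC box. In the order Col6a1, Col6a2 and Col6a3 their G and C content was 56.0%, 59.2% and 57.2%. The window of the other Col6a2 start, not shown, held 3 GC boxes at 64.4%. Of the 33 members 28 matched the table, with 30 windows, since Col6a2 and Col18a1 have 2 starts each. Col12a1 and Col1a1, both called, had no window. The median G and C content was 59.4% over the 30 member windows and 52.4% over all 32851 windows of the table. GC boxes were found in 17 of the 30 member windows, while 32.7% of all windows in the table held one. TATAAA was found in 5 and CCAAT in 10 of the 30, and in 12.4% and 33.8% of all windows. A match is only a run of letters, and none of these counts was tested.

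Col6a1 read 12.57, 11.91 and 12.50 in wild type, 12.48, 12.34 and 12.20 in Ednrb NCC null and 11.63, 12.01 and 11.58 in Ednrb null. Col6a2 read 12.93, 12.42 and 12.82, then 12.82, 12.43 and 12.44, then 12.02, 12.14 and 11.94 in the same order. Col6a3 read 12.77, 12.48 and 12.80, then 12.72, 12.49 and 12.49, then 12.07, 12.23 and 12.06. In each gene wild type 1C was the lowest wild type array. The Ednrb null arrays lay below all other arrays for Col6a2 and Col6a3, and for Col6a1 wild type 1C fell among them.

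Col6a2 fell by 0.69 in Ednrb null (SE 0.14, 1.61-fold, limma adjusted p = 0.0208) and Col6a3 by 0.56 (SE 0.11, 1.48-fold, adjusted p = 0.0141). Col6a1 differed by -0.59 (SE 0.17, 95% interval -0.97 to -0.21) and was not called (adjusted p = 0.0852). The other probe set of Col6a2 had nearly the same difference, -0.70. In Ednrb NCC null the 3 chains differed from wild type by 0.01, -0.16 and -0.12, with intervals that all held 0. Directly between the mutants, Ednrb null was lower by 0.60 for Col6a1 (adjusted p = 0.0683), by 0.53 for Col6a2 (adjusted p = 0.0516) and by 0.45 for Col6a3 (adjusted p = 0.0348), so only Col6a3 was called there. The calls in Ednrb null were lost without array 29 (adjusted p = 0.0678 for Col6a2 and 0.0598 for Col6a3), without 41 (0.0723 and 0.0525) and without wild type 1B (0.0867 and 0.0618), and that of Col6a2 also without wild type 1D (0.0616). Between the mutants Col6a3 was lost without Ednrb null 29 or 41 or any 1 of the Ednrb NCC null arrays, with adjusted p from 0.0746 to 0.129.

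**Figure D2:**
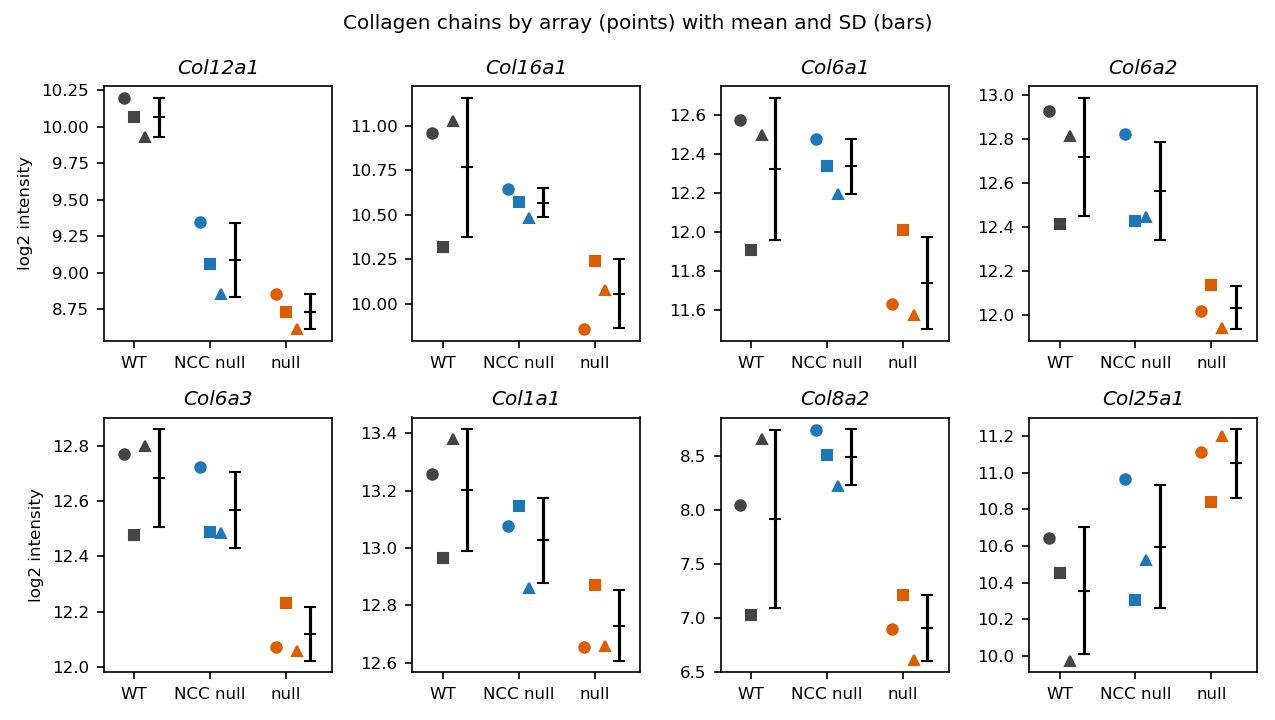
Log2 intensity of 8 collagen chains in each array (points; circle, square and triangle are the first to last array of a group in the order 1B, 1C, 1D, then 2, 5, 6, then 29, 37, 41), with the mean and SD of each group as bars beside them. WT is wild type, NCC null is Ednrb NCC null and null is Ednrb null; axes do not start at 0. Both mutants lie below wild type for Col12a1, while for the 3 chains of collagen VI the Ednrb NCC null means lie near wild type and the Ednrb null means below.

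Of the 9 fibrillar chains 1 fell in Ednrb null and 8 were not called, and in Ednrb NCC null all 9 were not called, with 1 at an unadjusted p under 0.05. The class median was -0.18 in Ednrb null and was -0.10 in Ednrb NCC null, and 8 and 9 of the 9 chains were below 0. Col1a1 and Col1a2 are the subunits of collagen I, the most abundant collagen of connective tissue. Col1a1 read 13.26, 12.96 and 13.38 in wild type, 13.08, 13.14 and 12.86 in Ednrb NCC null and 12.66, 12.87 and 12.66 in Ednrb null. The Ednrb null arrays lay below all wild type arrays, with Ednrb null 37 just above the lowest Ednrb NCC null array. Col1a1 fell by 0.47 (SE 0.12, 1.39-fold, limma adjusted p = 0.0497), at the edge of the threshold. The call was lost in 12 of 18 alternative settings, among them those without any array but wild type 1C (adjusted p from 0.0548 to 0.162), and was 0.0125 without wild type 1C. Its other probe set differed by -0.33.

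Col1a2 read 14.04, 13.75 and 14.03 in wild type, 13.89, 13.73 and 13.66 in Ednrb NCC null and 13.64, 13.53 and 13.73 in Ednrb null. Its groups also did not overlap between Ednrb null and wild type, but wild type 1C lay only just above Ednrb null 41, and the difference of -0.31 was not called (adjusted p = 0.131). Col3a1, the partner of collagen I in soft tissue, read 14.71, 14.70 and 14.70 in wild type, 14.79, 14.68 and 14.49 in Ednrb NCC null and 14.76, 14.76 and 14.55 in Ednrb null. It differed from wild type by -0.01 and -0.05, and the 95% interval in Ednrb null, from -0.23 to 0.20, held 0. Col3a1 lies next to Col5a2 on chromosome 1, and Col5a2 differed by -0.13 in each mutant.

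Collagen V starts fibrils and sets their width. Its chain Col5a1 read 11.59, 11.43 and 11.62 in wild type, 11.58, 11.40 and 11.37 in Ednrb NCC null and 11.31, 11.14 and 11.23 in Ednrb null. The Ednrb null arrays lay below all others, and the difference of -0.32 missed the threshold (adjusted p = 0.0762), as did those of its other probe sets at -0.24 and -0.33. Col5a3 was dim and differed by -0.31 (adjusted p = 0.188). Col11a2, which pairs with cartilage chains in cartilage, differed by -0.18, and Col27a1, a minor fibrillar chain, by -0.10.

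Col24a1, another minor fibrillar chain, was the only member higher by the test in any comparison. It read 5.23, 5.31 and 5.26 in wild type, 5.19, 4.84 and 4.83 in Ednrb NCC null and 5.43, 5.51 and 5.20 in Ednrb null. The arrays of the mutants did not overlap, but Ednrb null 41 lay only just above Ednrb NCC null 2. The difference of 0.43 (SE 0.11, limma adjusted p = 0.0477) was that of a dim probe set, at the 17th percentile of all genes. It was lost in 10 of 17 alternative settings, with adjusted p over all 17 from 0.00791 to 0.196. Without Ednrb null 29 or 37, without Ednrb NCC null 5 or 6 and without any 1 wild type array it was 0.0526 to 0.182.

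**Figure D3:**
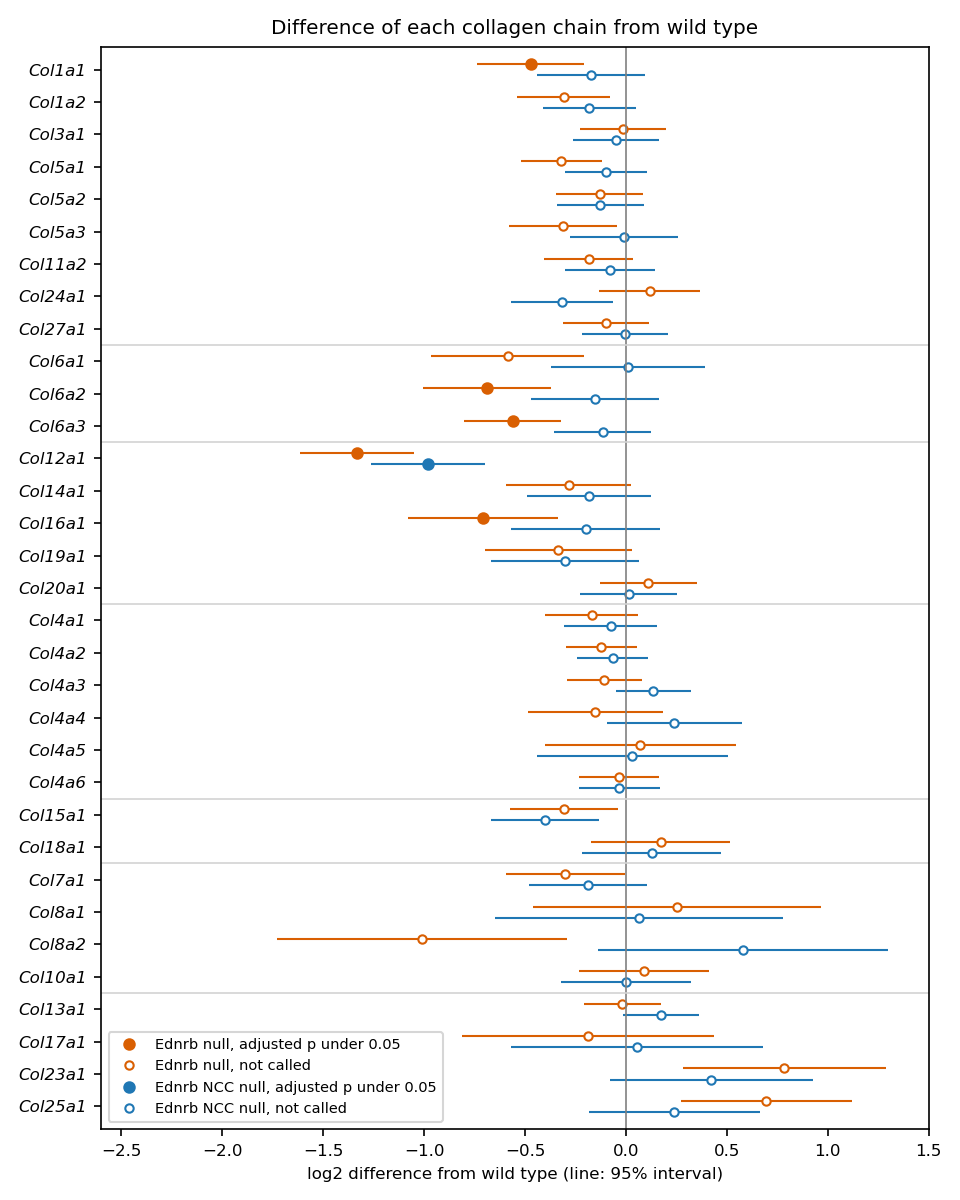
Difference of each collagen chain from wild type in log2 intensity (horizontal axis) for Ednrb null (orange) and Ednrb NCC null (blue), with 95% intervals of the limma fit as lines and classes parted by grey lines in the order fibrillar, VI, FACIT, IV, multiplexins, anchoring and network, transmembrane. Filled points are called and open points are not: 5 filled points stand for Ednrb null and 1, Col12a1, for Ednrb NCC null.

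The 6 chains of collagen IV showed small differences in all comparisons, and limma called 0 of them. At an unadjusted p under 0.05, 0 of 6 passed in either mutant against wild type and 2 between the mutants. Col4a1 and Col4a2 are the chains of most basement membranes, and their genes lie head to head on chromosome 8, with RefSeq starts 21 bases apart on opposite strands. Col4a1 read 12.65, 12.73 and 12.54 in wild type, 12.76, 12.50 and 12.42 in Ednrb NCC null and 12.58, 12.40 and 12.42 in Ednrb null. Col4a2 read 11.17, 11.19 and 11.22, then 11.23, 11.12 and 11.03, then 11.10, 11.02 and 11.09 in that order. Both overlapped between wild type and Ednrb NCC null. In Ednrb null Col4a1 differed by -0.17 (95% interval -0.40 to 0.06) and Col4a2 by -0.12 (-0.30 to 0.05), so a fall of more than 0.40 or 0.30 lay outside these intervals.

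Col4a3 and Col4a4, chains of specialised basement membranes and neighbours on chromosome 1, were dim. They differed by -0.11 and -0.15 in Ednrb null and by 0.14 and 0.24 in Ednrb NCC null, none called. Col4a5 and Col4a6, head to head on the X chromosome with starts 1343 bases apart, differed by 0.07 and -0.04 in Ednrb null and by 0.03 and -0.03 in Ednrb NCC null. The spread within groups was wide for the brightest probe set of Col4a5, which read 10.67, 10.66 and 10.24 in wild type, 10.85, 10.73 and 10.09 in Ednrb NCC null and 10.83, 10.76 and 10.20 in Ednrb null. Each group thus held 1 array far below its others in this probe set. The other probe set of Col4a5, with a mean of 9.15, had SDs of 0.03, 0.10 and 0.03 in that order (n = 3). There wild type 1D and Ednrb null 41 were the highest of their groups, and Ednrb NCC null 6 was the lowest of its group. Col4a6 read 7.62 in all 3 Ednrb NCC null arrays.

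Among the 4 anchoring and network collagens, Col8a2 differed between the mutants and none was called against wild type, where 2 passed at an unadjusted p under 0.05 in Ednrb null and 0 did in Ednrb NCC null. Col8a2 encodes a short network chain known from the membrane beneath the corneal endothelium. Its upstream window and that of Col16a1 are printed with the same capitals, as those of further called chains. The window of Col24a1, also called, held none of the letter strings and is not shown.
Col8a2, chr4:126286544-126286793, plus strand: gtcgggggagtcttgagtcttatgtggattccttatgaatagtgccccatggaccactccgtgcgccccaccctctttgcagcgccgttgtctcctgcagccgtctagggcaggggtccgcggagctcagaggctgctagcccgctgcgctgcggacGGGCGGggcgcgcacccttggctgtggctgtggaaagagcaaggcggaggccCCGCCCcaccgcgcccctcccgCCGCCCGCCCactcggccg
Col16a1, chr4:130047590-130047839, plus strand: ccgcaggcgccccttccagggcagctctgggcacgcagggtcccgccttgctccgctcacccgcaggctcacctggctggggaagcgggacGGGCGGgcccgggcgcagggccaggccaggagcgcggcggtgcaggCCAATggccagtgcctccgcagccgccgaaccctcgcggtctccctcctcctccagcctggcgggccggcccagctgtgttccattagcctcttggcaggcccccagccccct

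The Col8a2 window held 4 GC boxes, 2 of which overlap, and had a G and C content of 70.0%. The Col16a1 window held 1 GC box and 1 CCAAT at 75.6%. Col8a2 read 8.05, 7.03 and 8.67 in wild type, 8.74, 8.51 and 8.22 in Ednrb NCC null and 6.90, 7.22 and 6.60 in Ednrb null. The mutants did not overlap, while the wild type arrays spanned from within the Ednrb null range to within that of Ednrb NCC null. Between the mutants Ednrb null was lower by 1.59 (SE 0.33, 3.0-fold, limma adjusted p = 0.0161). Against wild type the differences were -1.01 in Ednrb null (adjusted p = 0.114) and 0.58 in Ednrb NCC null (adjusted p = 0.373), on opposite sides of 0. The call between the mutants was lost without Ednrb null 29 (adjusted p = 0.0562) or 41 (0.0702) and without Ednrb NCC null 2 (0.0561) or 5 (0.0662).

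Col8a1, its usual partner chain, read 9.49, 8.09 and 9.59 in wild type, 9.32, 9.14 and 8.92 in Ednrb NCC null and 9.04, 9.63 and 9.27 in Ednrb null. Wild type 1C again stood apart, here more than 1 unit below the other wild type arrays, and the differences of 0.25 and 0.07 were not called. Col7a1, which forms the anchoring fibrils of skin, differed by -0.30 and -0.19, and Col10a1, a chain of hypertrophic cartilage, was dim and differed by 0.09 in Ednrb null and by less than 0.01 in Ednrb NCC null.

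Both multiplexins are basement membrane proteoglycans, and neither was called, with 1 of 2 at an unadjusted p under 0.05 in each mutant against wild type and 0 between the mutants. Col15a1 read 9.49, 9.66 and 9.83 in wild type, 9.48, 9.21 and 9.09 in Ednrb NCC null and 9.22, 9.44 and 9.40 in Ednrb null. Both mutants lay below all wild type arrays, Ednrb NCC null 2 only just, and the differences were -0.40 in Ednrb NCC null (adjusted p = 0.0915) and -0.31 in Ednrb null (adjusted p = 0.192). Col15a1 was called in Ednrb NCC null when array 2 was left out, and when arrays were centred on their medians or quantile normalized. Col18a1, the source of endostatin, differed by 0.17 and 0.13, and its wild type value rested on array 1B at 9.83, with 1C and 1D at 10.52 and 10.47.

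The 4 transmembrane chains were the only class with a median above 0 in both mutants, at 0.34 for Ednrb null and 0.21 for Ednrb NCC null. None was called, while at an unadjusted p under 0.05 there were 2 of 4 for Ednrb null, 0 for Ednrb NCC null and 2 between the mutants. Col25a1, which motor axons need to innervate skeletal muscle, read 10.64, 10.45 and 9.97 in wild type, 10.96, 10.30 and 10.52 in Ednrb NCC null and 11.11, 10.84 and 11.20 in Ednrb null. It was the 1 member whose Ednrb null arrays all lay above wild type. The difference was 0.70 (SE 0.19, 95% interval 0.27 to 1.12, limma adjusted p = 0.0677), and its dimmer probe set differed by 0.11. Col23a1 read 9.05, 9.98 and 9.48 in wild type, 10.10, 9.70 and 9.98 in Ednrb NCC null and 10.70, 9.98 and 10.18 in Ednrb null. It differed by 0.78 (adjusted p = 0.0821), with its other probe sets at 0.51 and 0.52, and wild type 1C and Ednrb null 37 had the same value. Col13a1, of cell adhesion sites, differed by -0.02 and 0.17, and Col17a1, of epithelial hemidesmosomes, by -0.19 and 0.06.

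Of the 21 chains with several probe sets, all probe sets of a chain had the same sign in 14 when Ednrb null was compared with wild type, in 15 when Ednrb NCC null was, and in 13 between the mutants. Among the called chains with more than 1 probe set, Col12a1, Col6a2 and Col1a1 had a single sign in Ednrb null. The mixed ones included Col1a2, where the differences of the brightest and the next were -0.31 and -0.25 and that of the dimmest 0.08.

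**Figure D4:**
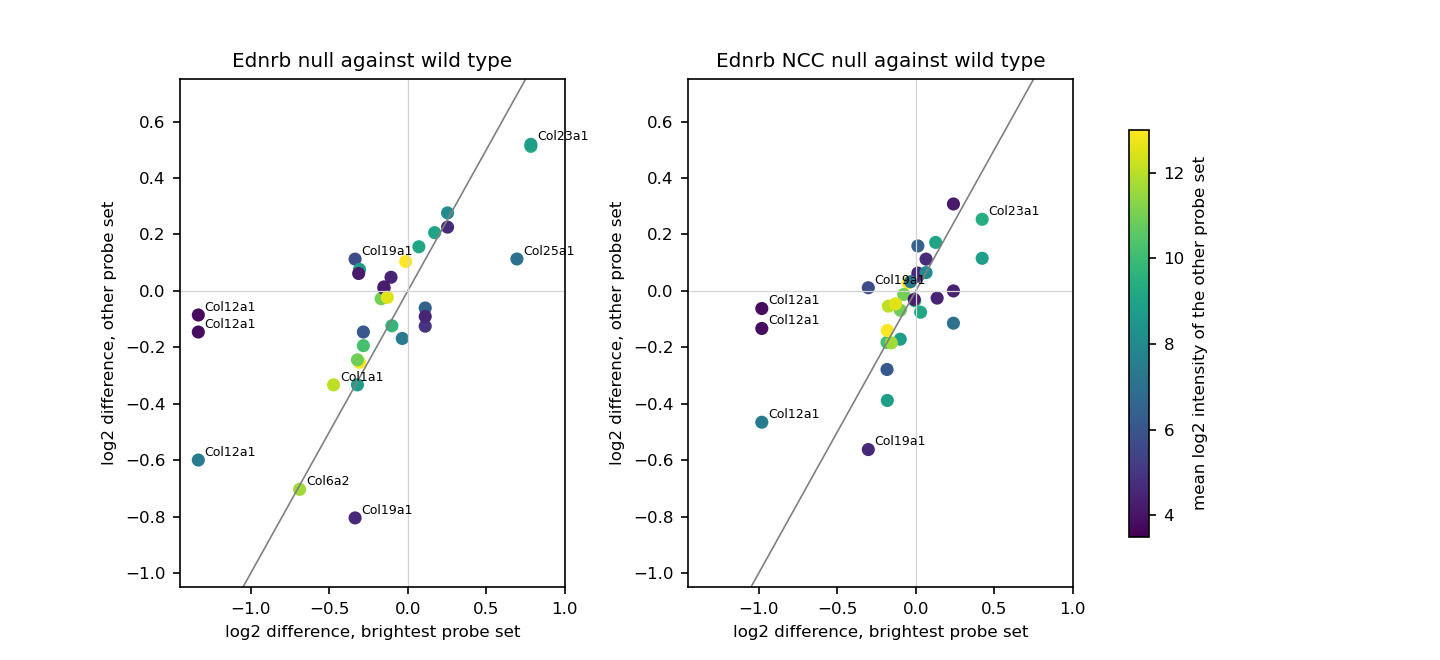
Difference from wild type in log2 intensity of each further probe set of a collagen chain (vertical axis) against that of the chain's brightest probe set (horizontal axis), for Ednrb null (left) and Ednrb NCC null (right), with colour for the mean log2 intensity of the further probe set and a line where both are equal. The further probe sets of Col12a1 lie above the line, with the dim ones near 0, and that of Col6a2 lies on the line at -0.70 in Ednrb null.

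The wild type arrays were not alike for these genes. Wild type 1C was below both other wild type arrays for 19 of the 33 members, or 57.6% of them, against 33.0% of all genes. Wild type 1B was so for 9 members, or 27.3%, against 41.8% of all genes. Ednrb NCC null 6 was below both others of its group for 21 members, or 63.6%, against 28.2% of all genes, while Ednrb null 29, 37 and 41 were the lowest of their group for 11, 10 and 12 members. Over all 9 arrays, wild type 1D held the highest value for 11 members, Ednrb NCC null 2 for 7 and wild type 1B for 6, and wild type 1C for 0. Without wild type 1C, 11 members were called in Ednrb null against wild type, 10 lower and 1 higher, which were all 5 from the 9 arrays and Col14a1, Col1a2, Col5a3, Col6a1, Col8a2 and Col23a1. Without Ednrb null 29, Ednrb null 41 or wild type 1B the count was 1, Col12a1 each time. It was 2 without wild type 1D and 3 without Ednrb null 37 or any 1 of the Ednrb NCC null arrays. Between the mutants the count of 3 became 0 without Ednrb null 29 or Ednrb NCC null 5, 1 without Ednrb null 41 or Ednrb NCC null 2 or 6, and 5 without wild type 1C. In Ednrb NCC null it was 2 without Ednrb NCC null 2. The share of all genes called moved as well. In Ednrb null it was 6.06% without wild type 1C, and 2.62%, 3.33% and 2.72% without Ednrb null 29, Ednrb null 41 and wild type 1B. Between the mutants it was 2.86% without Ednrb null 29, 3.37% without Ednrb NCC null 5 and 7.20% without wild type 1C.

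Markers of skin and squamous epithelium, a neighbour of the terminal colon, also differed between arrays of a group. The summed level of the 5 measured markers was 12.92, 11.14 and 13.17 in wild type, 12.11, 11.47 and 11.88 in Ednrb NCC null and 11.10, 12.15 and 12.19 in Ednrb null, in log2. Wild type 1C and Ednrb null 29 were the lowest, and Krt5, a keratin of the basal layer, read 7.76 in wild type 1C against 10.68 and 10.81 in 1B and 1D. All 5 markers lay above the dimmest 40% of genes. Summed markers of gut mesenchyme were 14.97 to 15.01 in wild type, 14.66 to 14.95 in Ednrb NCC null and 15.06 to 15.12 in Ednrb null. These sums are carried by the brightest markers, and in Ednrb null 6 of the 13 were below 0 and 7 above, with Hand1 called higher (0.93). In Ednrb NCC null 9 were below 0 and 4 above, with 2 called lower and 1 higher. Between the mutants 11 of the 13 were higher in Ednrb null and 2 lower, with 2 called higher. Of all genes, 2.65% were called higher in Ednrb null than in wild type. In Ednrb NCC null 1.25% were called lower and 3.7% higher, and 2.07% were higher in Ednrb null than there. Summed smooth muscle markers were 15.36 to 15.53 in wild type, 15.60 to 15.82 in Ednrb NCC null and 15.13 to 15.47 in Ednrb null. Other lists also moved with the groups. Red blood cell markers summed to 14.68 to 14.81 in Ednrb null, above 14.10 to 14.57 in wild type. Of the 5, 2 were called higher, against 2.65% of all genes. Mesothelium markers summed to 13.37 to 13.53 in Ednrb NCC null, above 12.64 to 12.99 in wild type. There 1 of 8 was called higher, against 3.7% of all genes. Ednrb null, at 12.84 to 13.23, overlapped wild type, with 0 called and 7 of 8 above 0. Wild type 1B was the lowest array, and Upk3b, a marker of mesothelium, read 6.04 there against 9.76 and 9.30 in 1C and 1D. Krt19, which is also in the gut epithelium list, was the brightest mesothelium marker and weighs most in these sums. Its means were 12.39 in wild type, 12.85 in Ednrb NCC null and 12.31 in Ednrb null. In Ednrb null 5 of 9 gut epithelium and 3 of 8 macrophage markers were called lower than in Ednrb NCC null, against 4.46% of all genes. Against wild type 0 of either list were called in Ednrb null. In Ednrb NCC null 3 epithelium and 2 macrophage markers were called higher than in wild type, against 3.7% of all genes, and all 9 and 8 were above 0. The part of these markers in the collagen differences was not tested.

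The Actb control probe sets give a 3′ over 5′ ratio, a reading of RNA integrity, which was 1.18 ± 0.13 in wild type, 1.21 ± 0.18 in Ednrb NCC null and 0.87 ± 0.06 in Ednrb null (log2, SD, n = 3). With this ratio as a covariate 2 members were called in Ednrb null against wild type, Col12a1 lower and Col25a1 higher, and 131 genes in all. The difference of Col6a2 was then -0.34 and that of Col6a3 -0.38, with adjusted p of 0.591 and 0.450, that of Col16a1 was -0.54 (0.540) and that of Col1a1 -0.48 (0.445). Between the mutants 0 members and 215 genes were called with the covariate, while the differences were -1.28 for Col8a2 (adjusted p = 0.324), 0.57 for Col24a1 (0.196) and -0.25 for Col6a3 (0.570). The ratio goes largely with the Ednrb null group, so its part and that of the genotype cannot be told apart for these chains.

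Procollagen chains are hydroxylated and folded in the endoplasmic reticulum, trimmed by proteases outside the cell and cross-linked by lysyl oxidases. The alternative settings, the Actb ratio included, were followed for Ednrb and the collagen members only. Calls of the pathway genes and cartilage chains below rest on the fit over the 9 arrays. Of 19 measured modifying enzymes and chaperones 1 fell in Ednrb null, 2 fell in Ednrb NCC null and 1 was higher in Ednrb null than in Ednrb NCC null. Those were 5.26%, 10.5% and 5.26% of them, against 2.39%, 1.25% and 2.07% of all genes. The prolyl hydroxylase P4ha3 read 9.62, 9.50 and 9.56 in wild type, 8.48, 8.71 and 8.25 in Ednrb NCC null and 9.38, 9.14 and 9.08 in Ednrb null. The 3 groups did not overlap, and P4ha3 fell by 1.08 in Ednrb NCC null (SE 0.12, 2.11-fold, limma adjusted p = 0.000883) and was 1.64-fold higher in Ednrb null than there (adjusted p = 0.00610). Colgalt2, which adds galactose to collagen, fell by 0.55 in Ednrb null and by 0.47 in the other mutant (limma adjusted p = 0.0241 and 0.0469). It was dim, at the 35th percentile of all genes. The collagen chaperone Serpinh1 differed by -0.23 and -0.32, neither called.

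Of 11 processing and cross-linking genes 2 fell in Ednrb null and 1 fell in Ednrb NCC null. Those were 18.2% and 9.09% of them, against 2.39% and 1.25% of all genes. Between the mutants 0 were called. There 4 passed at an unadjusted p under 0.05, or 36.4%, against 19.7% of all genes. Adamts3, a protease that removes the amino-terminal propeptide of procollagen, read 8.09, 8.28 and 8.10 in wild type, 7.77, 7.52 and 7.33 in Ednrb NCC null and 7.46, 7.63 and 7.56 in Ednrb null. All mutant arrays lay below wild type, and it fell by 0.61 and 0.62 in Ednrb null and Ednrb NCC null (limma adjusted p = 0.0110 and 0.0128). Lox, which cross-links collagen and elastin, read 12.32, 11.20 and 12.32 in wild type, 11.76, 11.83 and 11.55 in Ednrb NCC null and 10.71, 11.04 and 11.03 in Ednrb null. Wild type 1C was close to the Ednrb null arrays here too, and Lox fell by 1.02 in Ednrb null (SE 0.25, adjusted p = 0.0401).

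Of 19 matrix proteins that bind collagen, 4 were called lower in Ednrb null than in Ednrb NCC null, or 21.1%, against 4.46% of all genes. These were the small leucine-rich proteoglycans Kera at -1.10, Prelp at -0.97 and Lum at -0.84, which bind and space fibrils, and the tenascin Tnxb at -0.85, with limma adjusted p of 0.0240, 0.00440, 0.0370 and 0.00356. Prelp and Tnxb were dim, at the 31st and 30th percentile of all genes. Against wild type 0 of 19 were called in Ednrb null. There 9, or 47.4%, passed at an unadjusted p under 0.05, against 19.2% of all genes. In Ednrb NCC null 1 was called higher, or 5.26% against 3.7% of all genes, Tnxb at 0.53 (limma adjusted p = 0.0381). Lum read 13.22, 12.53 and 13.27 in wild type, 13.21, 13.25 and 13.02 in Ednrb NCC null and 12.10, 12.74 and 12.13 in Ednrb null. As for collagen VI, wild type 1C lay below the other wild type arrays. Of 9 collagen receptors limma called 0 in any comparison, with 2, 2 and 1 at an unadjusted p under 0.05. Those were 22.2%, 22.2% and 11.1% of them, against 19.2%, 19.6% and 19.7% of all genes. Among 11 genes that induce collagen 1, or 9.09%, was called higher in Ednrb null than in wild type, against 2.65% of all genes. Between the mutants 1 was higher in Ednrb null, against 2.07% of all genes. In both cases this was Scx, a transcription factor of tendon cells. Scx read 7.05, 7.38 and 7.22 in wild type, 7.62, 7.43 and 7.93 in Ednrb NCC null and 8.35, 8.07 and 8.17 in Ednrb null. It rose by 0.98 against wild type (SE 0.14, adjusted p = 0.00211) and was higher by 0.54 than in Ednrb NCC null (adjusted p = 0.0393).

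The cartilage chains left out of the list were mostly higher in Ednrb null, with 4 of 5 above 0, and all 5 were below 0 in Ednrb NCC null. Of the 5, Col9a1 and Col11a1 rose in Ednrb null by 0.73 and 0.44, Col2a1 and Col9a3 fell in Ednrb NCC null by 0.58 and 0.53, and all 4 were higher in Ednrb null than in Ednrb NCC null, by 0.70 to 1.11. Those were 40%, 40% and 80% of the 5, against 2.65%, 1.25% and 2.07% of all genes. Col2a1, the main collagen of cartilage, read 8.24, 8.0 and 8.12 in wild type, 7.65, 7.65 and 7.33 in Ednrb NCC null and 8.63, 8.37 and 8.95 in Ednrb null, with no overlap between any of the groups. Between the mutants the direction was that of Col24a1 and opposite to that of Col6a3 and Col8a2.

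**Figure D5:**
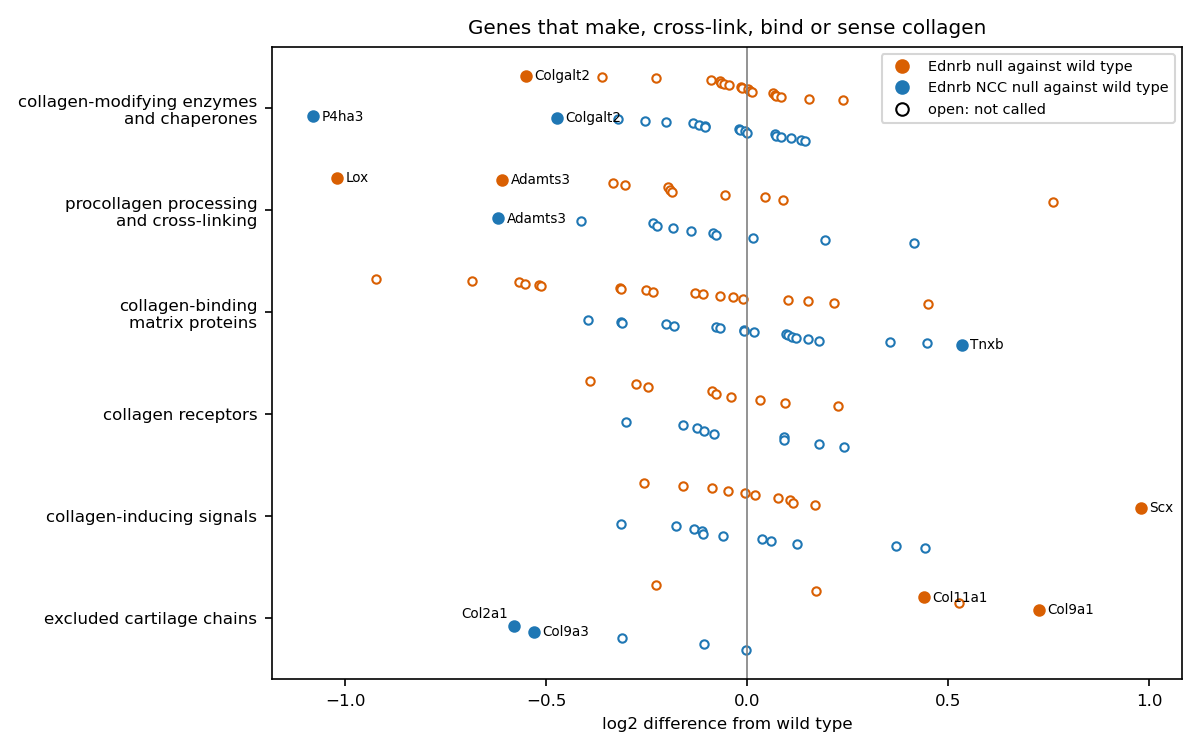
Difference from wild type in log2 intensity (horizontal axis) of the measured genes of 5 collagen pathway lists and of the excluded cartilage chains (rows), for Ednrb null (orange) and Ednrb NCC null (blue); filled points are called and named, open points are not called, and the height within a row only spreads the points. Colgalt2 and Adamts3 are filled in both mutants, Lox and Scx in Ednrb null, and P4ha3 and Tnxb in Ednrb NCC null.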

How the data were processed

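Values deposited by the authors are intensities, 1 for each probe set on each array. The submitters' processing notes name RMA, a method that corrects background, equalises the distributions of the arrays and summarises probes, and that shrinks small and dim differences. The deposited intensities were linear (5.69 to 61637), and log2 was taken with no pseudocount and no further normalization. There is no count depth on arrays, and precision depends on how many were run.

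Of 45101 probe sets, 34945 named 1 gene, and the brightest of a gene was used. A mean per group was fitted over the 9 arrays with limma 3.58.1 (lmFit, eBayes) in R 4.3.3, 2-sided, with Benjamini-Hochberg adjustment over 18193 genes. Alternatives were median centring, quantile normalization, a filter on the dimmest 40% of genes, only the groups compared, trend and robust eBayes, array weights, other choices of probe set, the Actb ratio, an adjusted p under 0.10 and leaving out each array. The collagen members and the pathway and marker lists were chosen with earlier results of these data known. Any member may be named. From pathway lists up to 6 called genes with the smallest p were named, and from marker lists up to 4 with the highest level. Serpinh1 was named outside this rule, after its values were seen.

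On simulated data over 18193 genes, 67 were changed by 1.5-fold, another 67 by 2-fold and 66 by 4-fold. Of those changed by 1.5-fold, 71.6% were recovered when Ednrb null was compared with wild type, 53.7% when Ednrb NCC null was, and 67.2% between the mutants. Noise was drawn for each gene on its own, so differences shared by many genes of an array were not simulated. False calls numbered 7, 6 and 6. Gene names came from the platform's gene table, and 18032 genes matched RefSeq by Entrez ID. Promoter windows came from RefSeq.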

Additional observations from a re-analysis of the deposited data

How the results depend on the processing

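Ednrb kept its direction and its side of the threshold in all 3 comparisons under every alternative run. So did Col12a1 in both mutants against wild type. The count of called members in Ednrb null against wild type, 5 over the 9 arrays, was 9 at an adjusted p under 0.10, 3 with only these groups fitted and 2 when the Actb ratio entered the fit, and ran from 1 to 11 when each array was left out. In Ednrb NCC null, the count of 1 was 2 at an adjusted p under 0.10, with arrays centred on their medians and with quantile normalization, and ran from 1 to 2 without each array. Between the mutants, the count of 3 was 5 at an adjusted p under 0.10 and with only these groups fitted. It was 7 with array weights and 0 with the Actb ratio, and ran from 0 to 5 without each array. The share of all genes called moved as well. Without each array it ran from 2.62% to 6.06% in Ednrb null, 1.47% to 6.04% in Ednrb NCC null and 2.79% to 7.20% between the mutants. With only the groups compared it was 3.08% in Ednrb null and 7.14% between the mutants. It was 0.720% and 1.18% there with the Actb ratio, and 12.8% between the mutants with array weights. The median difference between the mutants, -0.10, was -0.035 with arrays centred and 0.011 with the Actb ratio, and ran from -0.16 to -0.050 without each array. In Ednrb NCC null the median ran from -0.15 to -0.027 without each array, and in Ednrb null from -0.19 to -0.13. The other settings (the dimmest 40% of genes left out, trend and robust, plain or mean probe sets) kept the counts within 1.5 times. Of the values listed, only that median changed sign, with the Actb ratio. The causes were not tested. No paired analysis was possible because the labels give the groups no shared replicate numbers. Dim probe sets limit Col4a3, Col4a4, Col5a3, Col10a1, Col11a2, Col19a1, Col20a1 and Col24a1. The same holds for Colgalt2, Prelp and Tnxb among the called pathway genes. How the calls of pathway genes, markers and chains outside the list depend on these settings was not tested.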

Other observations

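The array also read 4 collagen genes outside the list, which were looked at after the values of the members were seen. Col6a4, a further collagen VI chain, read 9.72, 9.56 and 9.83 in wild type, 8.44, 9.40 and 8.88 in Ednrb NCC null and 9.32, 9.49 and 9.08 in Ednrb null. All mutant arrays lay below wild type. It fell by 0.80 in Ednrb NCC null (SE 0.20, limma adjusted p = 0.0458) and differed by -0.41 in Ednrb null (adjusted p = 0.298), an order of the mutants that was the reverse of that of Col6a1, Col6a2 and Col6a3, while the difference between the mutants, 0.39, was not called (adjusted p = 0.321). Col22a1, Col26a1 and Col6a5 were not called in any comparison, with differences from wild type between -0.15 and 0.23.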
